A study of Mus musculus with 30 samples.

Results

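The collagen chain genes are the genes that encode the α chains of the collagens, the main structural proteins of the extracellular matrix. They were taken as every gene of the kidney and gastrocnemius count tables whose symbol reads Col, a number, a and a number. This gave 44 genes among the 54838 of the kidney table, and the same 44 among the 55487 of the gastrocnemius table. They comprise 11 fibrillar chains, the 6 chains of type IV collagen and 27 other chains. The filter on low counts (edgeR's filterByExpr with a minimum count of 10) left 34 chains for testing in kidney and 41 in gastrocnemius. In kidney the 10 chains below it were Col2a1, Col6a5, Col9a1, Col9a2, Col9a3, Col10a1, Col11a1, Col17a1, Col22a1 and Col28a1, and in gastrocnemius the 3 chains were Col6a4, Col10a1 and Col25a1. A chain that is on in one diet group alone can pass this filter, since it is applied by group.

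The RNA-seq libraries came from male C57BL/6J mice of a NAFLD study, kept at thermoneutrality (30 to 32 °C) from 6 weeks of age. One group received a chow diet (CD), one a western diet (WD), and one the WD with cyclo(His-Pro) (CHP), which is histidine and proline joined in a ring, gavaged at a dose of 20 mg/kg on 3 days a week. Diet and CHP ran from Week 7 to Week 24, water was the gavage of the CD and WD mice, and tissue was taken after 3 h without food. There were 5 libraries for each group in either tissue and 30 together. The paper lists fewer mice of this age than 30, so some mice would have given both tissues. Nothing in the sources used here says which kidney and muscle were from the same mouse. There was no CHP group on the CD, so the effect of CHP was measured only on the WD. The comparison of WD vs. CD asks what the diet did to the collagen genes, that of WD+CHP vs. WD asks what CHP did on the WD, and that of WD+CHP vs. CD asks how far the treated mice lay from chow-fed mice. Neighbouring comparisons share libraries: the first and the third share the CD group, and the first and the second the WD group with opposite sign.

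Collagen α chains assemble in threes into a triple helix in the endoplasmic reticulum, after hydroxylation of proline and lysine, and are then secreted, trimmed and cross-linked. Fibrillar collagens (types I, II, III, V, XI, XXIV and XXVII) build the fibres of connective tissue and tendon. Type IV collagen forms the sheet of the basement membrane, with α1 and α2 chains in nearly every tissue and α3, α4 and α5 chains in the mature glomerular basement membrane of the kidney. Type VI collagen makes beaded filaments around cells, FACIT collagens (types IX, XII, XIV and others) sit on the surface of fibrils, and the multiplexins XV and XVIII lie at basement membranes.

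Kidney libraries held 37189192 to 38211422 counts and gastrocnemius libraries 50319024 to 53282969, of which the collagen genes took 0.152% to 0.179% and 0.0875% to 0.166%. Sample labels name kidney or gastrocnemius, but their extraction text speaks of frozen liver, so tissue identity was checked by markers. All 10 proximal tubule markers passed the filter in kidney and 0 of 10 in gastrocnemius, where their summed level was 0.134 to 1.90 CPM, the counts scaled to a common library total, against 16654 to 19168 CPM in kidney. The 10 markers of fast muscle fibres summed to 185387 to 251755 CPM in gastrocnemius and 18.0 to 29.3 CPM in kidney. The 8 hepatocyte markers summed to 0.458 to 66.0 CPM in gastrocnemius and 166 to 896 CPM in kidney, where WD replicate 5 was the highest. Gastrocnemius CD replicate 5 stood apart from its group in the collagens, with a sum over all 44 chains of 896 CPM against 1325 to 1542 CPM in the other 4 libraries. In whole tissue, fewer cells of a type and less RNA per cell cannot be told apart.

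Many collagen genes lie next to a partner in the genome. Col4a3 and Col4a4 stand head to head on chromosome 1 of GRCm38 (GENCODE M21), with 71 bases between their starts at 82586921 and 82586849. Col4a1 and Col4a2 stand head to head on chromosome 8 and overlap by 22 bases, and Col4a5 and Col4a6 on chromosome X are 1308 bases apart. Col3a1 and Col5a2 on chromosome 1 face each other tail to tail, 24614 bases apart. Col6a6, Col6a5 and Col6a4 follow one another on chromosome 9. How the authors' counting treated strand and reads shared between genes is not given in the sources used here, so values of overlapping or closely related chains are uncertain. Of the chains described below, Col4a3 shares the most exon sequence with other genes, 5.65% of its exon bases, all with C430014B12Rik.

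Sequence upstream of 4 of the genes with the clearest differences is given for context, from RefSeq (GRCm38.p6), 5′ to 3′ on the strand of the gene. RefSeq promoter windows were matched for 35 of the 44 genes, and none was matched for Col4a3, Col5a2 or Col1a1. Capitals mark matches, on either strand, to GGGCGG (a GC box), CCAAT or TATAAA, none of which overlap one another here. The first is the whole stretch between the starts of Col4a4 and Col4a3 (chr1:82586850-82586920, minus strand). The others end at the start of the gene given by RefSeq (Col27a1, chr4:63215162-63215411, plus strand, and Col7a1, chr9:108953336-108953585, plus strand) or by GENCODE (Col6a6, chr9:105828161-105828335, minus strand).
Col4a4: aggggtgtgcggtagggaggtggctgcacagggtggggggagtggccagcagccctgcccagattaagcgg
Col27a1: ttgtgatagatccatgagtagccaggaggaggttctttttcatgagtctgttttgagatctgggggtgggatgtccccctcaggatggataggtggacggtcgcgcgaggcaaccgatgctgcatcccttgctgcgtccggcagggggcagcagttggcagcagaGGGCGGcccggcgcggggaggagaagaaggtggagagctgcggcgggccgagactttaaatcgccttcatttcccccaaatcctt
Col6a6: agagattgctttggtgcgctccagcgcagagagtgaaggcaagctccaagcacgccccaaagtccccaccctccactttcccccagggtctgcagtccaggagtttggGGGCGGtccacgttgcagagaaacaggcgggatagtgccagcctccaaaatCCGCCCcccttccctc
Col7a1: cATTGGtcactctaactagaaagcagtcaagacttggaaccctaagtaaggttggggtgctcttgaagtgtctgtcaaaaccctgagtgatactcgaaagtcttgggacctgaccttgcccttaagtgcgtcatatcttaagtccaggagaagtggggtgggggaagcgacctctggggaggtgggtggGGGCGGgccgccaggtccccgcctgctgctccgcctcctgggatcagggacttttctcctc
The stretch between Col4a4 and Col4a3 held no match to the 3 motifs and was 69.0% G or C. Col27a1 had 1 GC box, Col6a6 had 2, and Col7a1 had 1 GC box and 1 CCAAT. Of the 250 bases upstream of all 32851 RefSeq windows, 32.7% held GGGCGG, 33.8% CCAAT and 12.4% TATAAA, and of the 38 windows of collagen genes 57.9%, 34.2% and 13.2% did. The GENCODE start of Col27a1 lies further upstream, at 63214004, so its window is within an intron of the longest GENCODE model. A match is a description of the letters and not a binding site.

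In kidney the most abundant chains per kilobase of exon were those of type IV collagen. Under CD, Col4a3 stood at 34.3 ± 3.78 CPM per kb (SD, n = 5), Col4a1 at 32.3 ± 2.09, Col4a4 at 28.2 ± 2.12 and Col4a2 at 22.6 ± 1.46, followed by the multiplexin Col18a1 at 21.8 ± 0.784. Col4a3 and Col4a1 did not differ beyond their spread, and neither did Col4a2 and Col18a1. Col27a1 (6.51 ± 0.829) and Col4a5 (6.26 ± 0.367) came next and were also within their spread of each other. Col1a2 (2.63 ± 0.321), Col3a1 (1.82 ± 0.36) and Col1a1 (1.65 ± 0.273), the classic chains of interstitial matrix, ranked lower. The 6 type IV chains made up 69.1% of all collagen CPM under CD, 61.0% under WD and 63.5% under WD+CHP.

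Gastrocnemius had a different order, headed by fibrillar and type VI chains together with Col4a1 and Col4a2. Under CD, Col1a1 stood at 25.7 ± 8.44 CPM per kb, Col4a1 at 20.9 ± 2.62, Col1a2 at 19.8 ± 5.6, Col6a1 at 16.8 ± 3.62, Col4a2 at 16.5 ± 1.83 and Col3a1 at 14.1 ± 3.83 (SD, n = 5). None of these neighbours differed beyond its spread. The fibrillar chains made up 50.6% of collagen CPM under CD and the type IV chains 20.3%. The chains of the mature glomerular network were scarce in muscle, with Col4a5 at 0.451 ± 0.0868, Col4a4 at 0.285 ± 0.0108 and Col4a3 at 0.253 ± 0.0188 CPM per kb. The tables of the tissues were normalised separately, so levels set across them are approximate. Length here is that of all annotated exons of a gene joined, which exceeds the longest coding transcript unevenly. It is 12426 against 5348 bases for Col1a2 and 13022 against 7612 for Col27a1, but 6563 against 5930 for Col1a1. The order of chains in either tissue therefore depends on the length used, and Col1a2 would stand higher by transcript length.

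**Figure D1:**
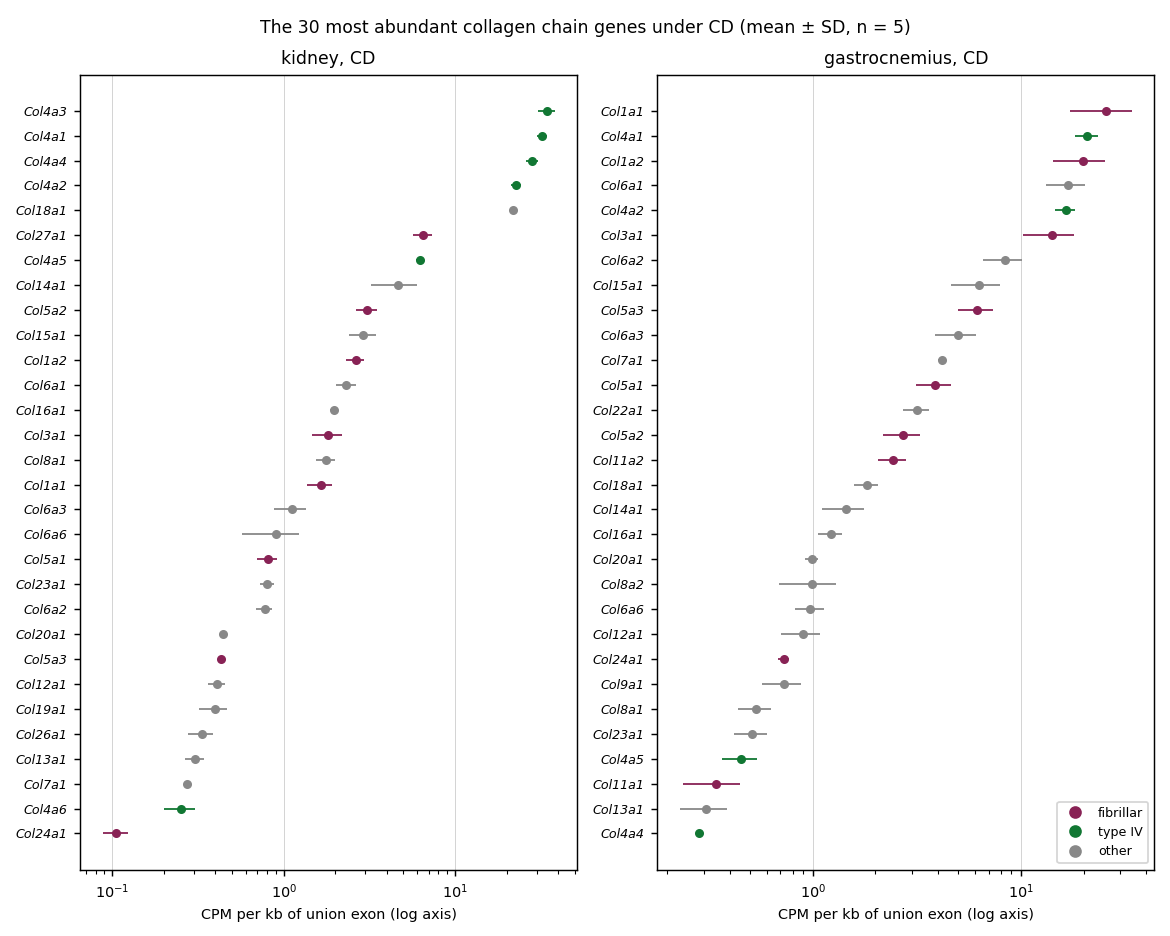
Mean CPM per kb of union exon under CD on a log axis, with the SD over 5 libraries as bars, for the 30 most abundant collagen genes of each tissue, coloured by class. By union exon length, type IV chains and Col18a1 lead in kidney, and Col1a1, Col4a1 and Col1a2 lead in gastrocnemius.

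On the WD, 10 of the 34 collagen genes tested in kidney differed from CD at an adjusted p under 0.05, against 9.65% of all 17120 genes tested. 7 rose (4.62% of all genes did) and 3 fell (5.03%). The rises were in Col27a1, Col1a1, Col6a2, Col13a1, Col1a2, Col12a1 and Col18a1, and the falls in Col6a6, Col5a2 and Col25a1. The median log2 fold change over the 34 was 0.047, beside 0.0015 over all genes, and 23 of them were above 0. No type IV chain was called by edgeR, and 1 of the 6, Col4a4, had an unadjusted p under 0.05.

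Among fibrillar chains, 3 of the 9 tested rose and 1 fell. Col27a1, which encodes a fibrillar chain best known from cartilage, was the fibrillar gene with the largest rise. It stood at 94.1, 80.0, 81.2, 97.4 and 71.2 CPM in the CD libraries and at 282, 202, 253, 164 and 201 CPM in the WD libraries. All 5 WD libraries lay above all 5 CD libraries. The fold change was 2.60 (log2 1.38, SE 0.142, adjusted p = 3.94e-05).

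Col1a1, which encodes the α1 chain of type I collagen, was at 11.1, 10.6, 11.4, 13.0 and 8.04 CPM under CD and at 21.4, 18.8, 19.4, 14.9 and 15.01 CPM under WD. The groups did not overlap (log2 fold change 0.73, SE 0.162, adjusted p = 0.0099). Col1a2, the partner α2 chain, was at 28.9 to 38.8 CPM under CD and 39.2 to 48.2 CPM under WD, again without overlap (0.38, SE 0.0976, adjusted p = 0.0228). The call of Col1a2 was lost without CD replicate 3 (adjusted p = 0.0519), CD replicate 5 (0.0541), WD replicate 1 (0.0609) or WD replicate 2 (0.0511). Col3a1, the chain of type III collagen, did not pass (0.33, SE 0.137, adjusted p = 0.143), with 12.7 to 21.9 CPM under CD and 20.3 to 24.7 under WD.

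The chains of type V collagen, which regulates fibril diameter, diverged. Col5a2 was at 33.5, 27.0, 26.5, 26.3 and 34.5 CPM under CD and at 11.4, 13.0, 14.4, 15.2 and 13.0 CPM under WD. The highest WD library was well below the lowest CD library, a fall of 2.21-fold (log2 −1.14, SE 0.118, adjusted p = 3.94e-05). Col5a1, the α1 chain that pairs with it, was at 5.80 to 8.02 CPM under CD and 6.80 to 9.39 under WD and was not called (0.23, SE 0.118, adjusted p = 0.239). The ratio of Col5a2 to Col5a1 CPM, which is not corrected for length and so is read only between groups, was 4.41 ± 1.02 under CD, 1.70 ± 0.34 under WD and 2.06 ± 0.307 under WD+CHP (SD, n = 5). Col3a1, the neighbour of Col5a2 on chromosome 1, had a value of the opposite sign. The summed CPM of the 10 fibroblast markers, all above the filter, overlapped between groups, at 107 to 139 under CD and 121 to 141 under WD, and 1 of the 10, Scara5, was called higher (0.58, adjusted p = 0.0315). The 8 pericyte and smooth muscle markers summed to 153 to 195 CPM and 182 to 230 CPM, and 8 genes that respond to tissue handling to 99.2 to 208 CPM and 173 to 293 CPM. The 10 fast fibre markers, low in kidney, summed to 18.0 to 19.7 CPM under CD and 22.7 to 29.3 CPM under WD. Of the adipocyte markers, Cfd was called lower (−2.47, adjusted p = 0.0311), and Adipoq (−0.90, 0.494) and Plin1 (−1.21, 0.444) were not called. The part of these cells and of handling in the kidney differences was not tested.

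Type VI chains also split. Col6a6, one of the chains that can stand in for α3(VI), was at 5.50, 12.8, 9.70, 6.09 and 7.25 CPM under CD and at 1.06, 2.39, 1.44, 3.64 and 3.44 CPM under WD. The groups did not overlap and the fall was 3.45-fold (log2 −1.79, SE 0.286, adjusted p = 0.00126), the largest of any collagen gene in kidney. Col6a2, one of the chains of the common α1α2α3 assembly, was at 5.89, 6.64, 5.91, 7.56 and 6.23 CPM under CD and at 11.1, 10.999, 10.0, 8.70 and 8.30 CPM under WD, without overlap (0.61, SE 0.141, adjusted p = 0.0128). Its partners Col6a1 (0.45, SE 0.146, adjusted p = 0.0608) and Col6a3 (0.43, SE 0.137, adjusted p = 0.0584) had values of like sign just short of the threshold. Col6a1 passed it in 5 and Col6a3 in 6 of 10 other settings, both of them with DESeq2 (0.0222 and 0.0211), no filter, only the 2 groups and the replicate block with or without the length and GC correction, and Col6a3 also with limma-voom (0.0487).

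Of the remaining chains, Col18a1, whose protein carries endostatin, was at 146 to 159 CPM under CD and 162 to 188 under WD without overlap, a small rise (0.17, SE 0.0412, adjusted p = 0.017). Col12a1, a FACIT chain of dense connective tissue, rose from 6.19 ± 0.706 to 7.85 ± 0.795 CPM (0.34, SE 0.0812, adjusted p = 0.0141), also without overlap. Col13a1, a transmembrane collagen of cell adhesion sites, rose by 0.56 (SE 0.158, adjusted p = 0.0353), with overlapping groups of 1.14 to 1.57 and 1.25 to 2.53 CPM. Its call was lost without any one of CD replicates 1, 3 and 5 and WD replicates 1, 2 and 4 (adjusted p = 0.0538 to 0.0923), and in 3 of the 10 other settings, limma-voom, no filter and only the 2 groups (0.0506 to 0.0709). Col25a1, another transmembrane chain with only 9 to 21 counts per library, fell by 0.68 on the log2 scale (SE 0.205, adjusted p = 0.0497). Its call was lost in 7 of the 10 fits that left out 1 CD or WD library, namely CD replicates 3, 4 and 5 and WD replicates 1, 2, 3 and 5 (adjusted p up to 0.12), and without any one of WD+CHP replicates 1 to 4 (0.052 to 0.0553). It was also lost with DESeq2 (0.136), limma-voom (0.0509), RLE size factors (0.0506), no filter (0.148), the replicate block (0.0614), only the 2 groups (0.0612) and the length and GC correction with that block (0.0595), and the filter of 10 counts in every library removed the gene.

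The type IV chains of kidney were close to their CD levels on the WD. Col4a1 was at 228 to 263 CPM under CD and 228 to 276 under WD (0.06, SE 0.0571, adjusted p = 0.594), and Col4a2 at 142 to 165 and 138 to 170 (0.03, SE 0.0579, adjusted p = 0.788). Col4a3 was at 304 to 391 and 273 to 325 CPM (−0.16, SE 0.0791, adjusted p = 0.231), Col4a4 at 264 to 326 and 262 to 289 (−0.13, SE 0.0575, adjusted p = 0.157), and Col4a5 at 39.4 to 44.9 and 38.2 to 49.7 (0.04, SE 0.0584, adjusted p = 0.736). Each chain's groups overlapped. The SEs show the precision reached for abundant genes in this tissue. Col15a1, the other multiplexin, was not called either (0.08, SE 0.129, adjusted p = 0.751). The other 14 chains tested, which include Col4a6, ranged from −0.46 to 0.39 with adjusted p of 0.123 or more.

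**Figure D2:**
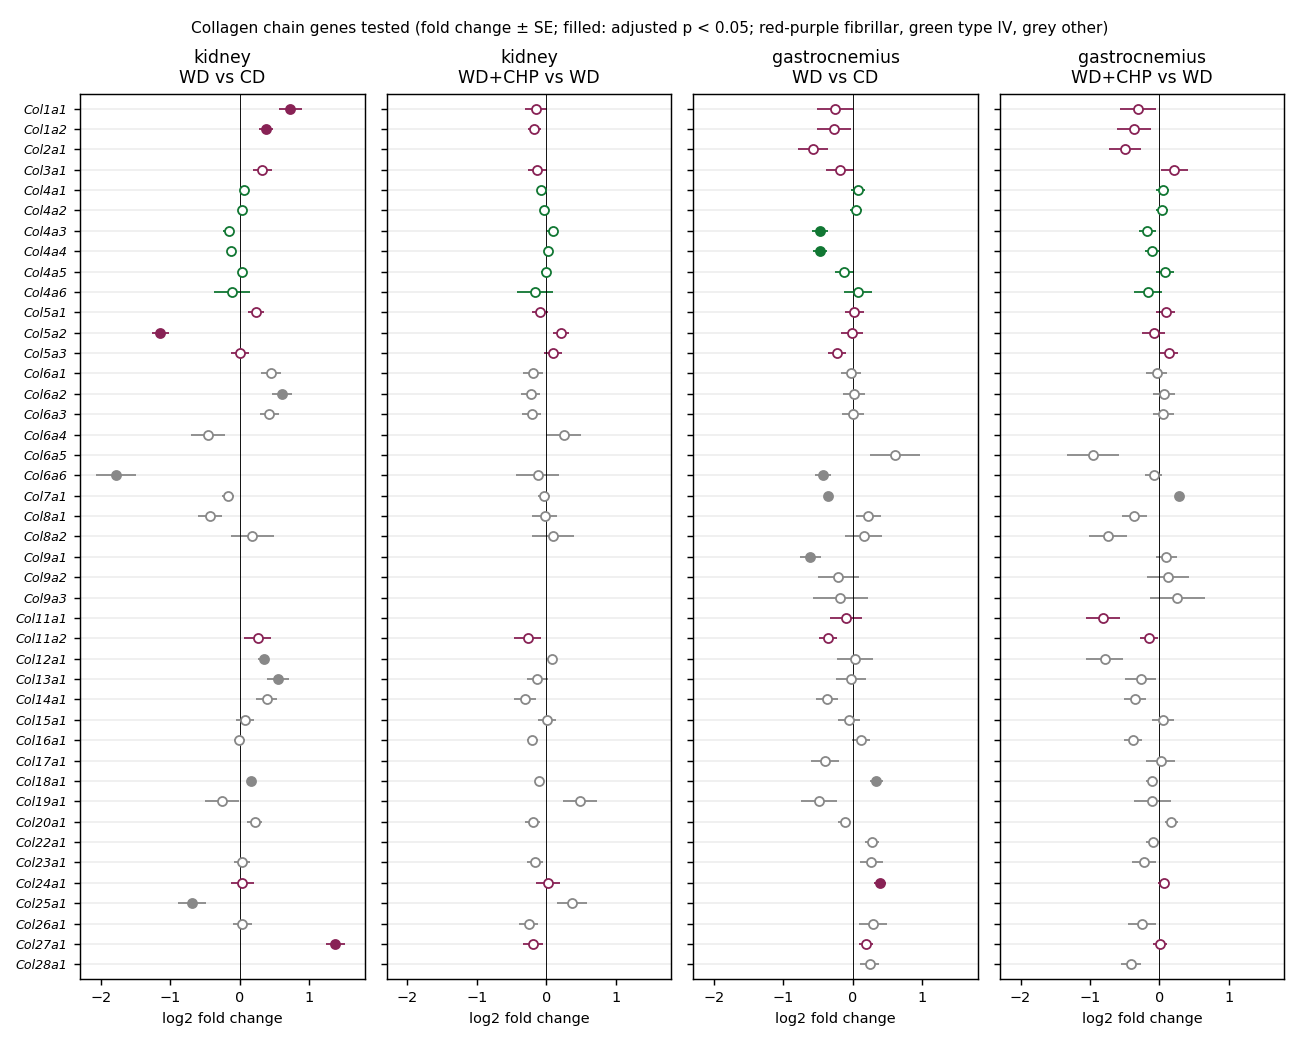
Log2 fold change with its SE for each collagen gene tested, in WD vs. CD and WD+CHP vs. WD of each tissue, with filled points for an adjusted p under 0.05. In kidney 10 of 34 points are filled for WD vs. CD and 0 for WD+CHP vs. WD, and in gastrocnemius 7 and 1 of 41.

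CHP moved no collagen gene of kidney past the threshold relative to WD. In edgeR's quasi-likelihood test 0 of 34 were called, beside 0.105% of all genes, and 2 had an unadjusted p under 0.05. DESeq2 and limma-voom also called 0, with 3 and 2 at an unadjusted p under 0.05. The median log2 fold change over the chains was −0.095 beside −0.0058 over all genes, with 23 of the 34 below 0. Col27a1 was at 163, 151, 230, 205 and 214 CPM under WD+CHP, where 3 of the 5 libraries lay within the WD range and 2 just below it (−0.19, SE 0.139, adjusted p = 0.645). Col5a2 was at 17.9, 19.1, 14.8, 13.8 and 12.0 CPM (0.21, SE 0.121, adjusted p = 0.536) and Col6a6 at 2.30, 2.46, 2.45, 1.58 and 2.19 CPM. All 3 genes stayed apart from the CD libraries.

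The interstitial chains of types I, III and V were not called in WD+CHP vs. WD. Log2 fold changes were −0.14 for Col1a1 (SE 0.159, adjusted p = 0.784), −0.17 for Col1a2 (SE 0.0973, adjusted p = 0.533), −0.13 for Col3a1 (SE 0.136, adjusted p = 0.774) and −0.09 for Col5a1 (SE 0.117, adjusted p = 0.833). WD+CHP replicate 5 had the lowest value of its group for each of these, for example 10.6 CPM of Col1a1 against 15.5 to 22.5 in the other 4. Without it the values were −0.022 for Col1a1, −0.092 for Col1a2, −0.035 for Col3a1 and 0.0049 for Col5a1. For type VI the values were −0.19 for Col6a1 (SE 0.145, adjusted p = 0.655), −0.22 for Col6a2 (SE 0.139, adjusted p = 0.579) and −0.21 for Col6a3 (SE 0.136, adjusted p = 0.596), and without WD+CHP replicate 5 they were −0.07, −0.11 and −0.11. Col18a1 had −0.10 (SE 0.0412, adjusted p = 0.346) and Col15a1 0.0078 (SE 0.129, adjusted p = 0.992).

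For type IV under CHP vs. WD, kidney values were −0.07 for Col4a1 (SE 0.0571, adjusted p = 0.669), −0.04 for Col4a2 (SE 0.0579, adjusted p = 0.871), 0.09 for Col4a3 (SE 0.0791, adjusted p = 0.704), 0.03 for Col4a4 (SE 0.0575, adjusted p = 0.899) and −0.01 for Col4a5 (SE 0.0584, adjusted p = 0.968). No type IV chain reached an unadjusted p under 0.05. The other 17 chains ranged from −0.30 to 0.49 with adjusted p of 0.324 or more.

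Against CD, the treated kidneys had 5 of 34 chains called, beside 12.1% of all genes. 3 were higher (6.25% of all genes) and 2 lower (5.84%). They were Col27a1 (1.19, SE 0.141, adjusted p = 0.000225), Col1a1 (0.58, SE 0.163, adjusted p = 0.0286) and Col12a1 (0.42, SE 0.0811, adjusted p = 0.00424) among the rises, and Col6a6 (−1.91, SE 0.29, adjusted p = 0.00104) and Col5a2 (−0.93, SE 0.117, adjusted p = 0.000347) among the falls. All 5 were also called on the WD alone, and both comparisons use the same CD libraries. The call of Col1a1 was lost without CD replicate 5 (adjusted p = 0.0714), replicate 3 of WD+CHP (0.0797) or replicate 4 of that group (0.0632). Leaving out WD+CHP replicate 5 raised the count to 9, with Col1a2, Col6a1, Col6a2 and Col8a1 added. The 29 chains not called ranged from −0.45 to 0.43.

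**Figure D3:**
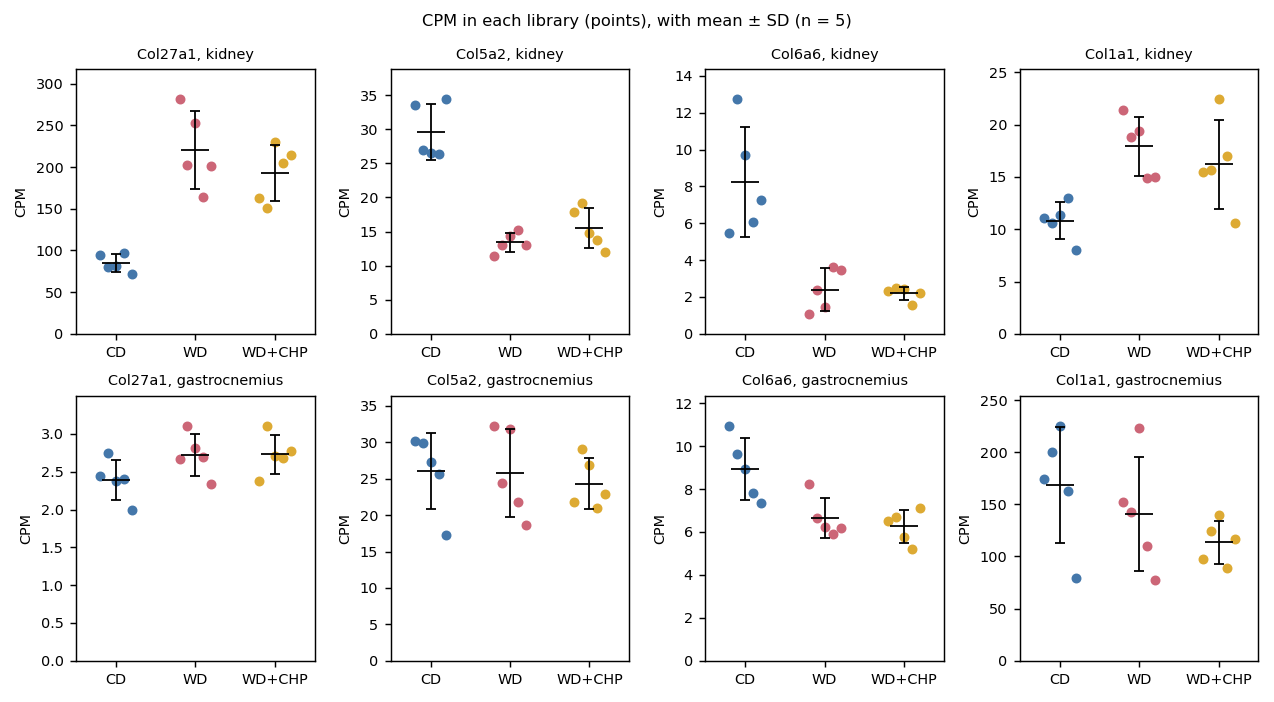
CPM of Col27a1, Col5a2, Col6a6 and Col1a1 in each library, kidney in the upper row and gastrocnemius in the lower, with the mean and SD of 5 libraries per group. In kidney the WD libraries are apart from the CD libraries for all 4 genes, and in gastrocnemius the WD and CD libraries overlap for all 4.

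In gastrocnemius, 7 of the 41 chains tested differed between WD and CD, beside 8.63% of all 15419 genes tested. 2 rose (4.67% of all genes) and 5 fell (3.96%). The median over the 41 was −0.025, beside 0.0013 over all genes, and 23 were below 0. The chains that make up most of the muscle's collagen RNA were not among them.

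The clearest pair was Col4a3 and Col4a4, the head-to-head genes of the α3 and α4 chains of type IV collagen. Col4a3 was at 2.57, 2.36, 2.45, 2.83 and 2.40 CPM under CD and at 2.27, 1.97, 1.52, 1.66 and 1.67 CPM under WD. Every WD library was below every CD library (log2 fold change −0.48, SE 0.118, adjusted p = 0.0182). Its call was lost without CD replicate 4 (adjusted p = 0.0522) or WD replicate 3 (0.0508). Col4a4 was at 3.00, 3.18, 2.86, 3.03 and 3.07 CPM under CD and at 2.19, 2.36, 2.43, 2.05 and 1.89 CPM under WD, again apart (−0.47, SE 0.0972, adjusted p = 0.00613). Its call held in all 10 fits that left out a CD or WD library. These are low levels, of 70 to 139 counts per library for Col4a3 and 85 to 168 for Col4a4.

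The other type IV chains of muscle were not called. Col4a1 was at 124 to 176 CPM under CD and 134 to 196 under WD (0.07, SE 0.0974, adjusted p = 0.712), and Col4a2 at 91.7 to 125 and 97.0 to 131 (0.04, SE 0.0852, adjusted p = 0.814). Col4a5 was at 2.52 to 3.91 and 2.45 to 3.56 (−0.12, SE 0.133, adjusted p = 0.627). Summed per kb, Col4a3, Col4a4 and Col4a5 had 0.0267 ± 0.00233 of the level of Col4a1 and Col4a2 under CD and 0.0208 ± 0.00256 under WD (SD, n = 5), against 1.26 ± 0.14 and 1.12 ± 0.108 in kidney.

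Col7a1, whose protein forms the anchoring fibrils below epithelial basement membranes, was the most precisely measured of the called chains. It was at 41.9, 43.8, 40.3, 44.6 and 44.9 CPM under CD and at 32.2, 34.6, 32.9, 34.7 and 33.5 CPM under WD. The groups were apart (−0.36, SE 0.052, adjusted p = 0.000489). Col24a1, a minor fibrillar chain, was at 5.63, 5.30, 6.06, 5.58 and 5.21 CPM under CD and at 6.52, 8.07, 7.40, 6.87 and 7.54 under WD, also apart (0.39, SE 0.0809, adjusted p = 0.00628). Both calls held in all 10 fits that left out a CD or WD library.

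The 3 remaining calls had overlapping groups. Col9a1, a FACIT chain of cartilage, fell by 0.62 on the log2 scale (SE 0.151, adjusted p = 0.0173), from 2.42 to 4.34 CPM under CD to 1.91 to 2.72 under WD, and missed the threshold without CD replicate 4 (0.0508). Col6a6 fell by 0.43 (SE 0.117, adjusted p = 0.031), from 7.36 to 10.95 CPM to 5.89 to 8.22. Its call was lost without any one of CD replicates 1, 2 and 3 and WD replicates 2, 3, 4 and 5 (adjusted p = 0.0564 to 0.0774), with total count scaling (0.0619) and with only the 2 groups fitted (0.0512). Col18a1 rose by 0.34 (SE 0.0928, adjusted p = 0.0334), from 11.2 to 14.7 CPM to 14.3 to 19.1. Its call was lost without any one of CD replicates 3, 4 and 5 and WD replicates 1 and 3 (adjusted p = 0.0764 to 0.0857), with no filter (0.0512) and with only the 2 groups fitted (0.0742).

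The abundant interstitial chains of muscle varied widely within groups. Col1a1 was at 175, 200, 225, 163 and 79.2 CPM under CD and at 152, 142, 223, 110 and 77.0 CPM under WD. The groups overlapped over almost their whole range (−0.26, SE 0.26, adjusted p = 0.591). Col1a2 had −0.27 (SE 0.244, adjusted p = 0.542), Col3a1 −0.18 (SE 0.197, adjusted p = 0.616), Col5a1 0.02 (SE 0.136, adjusted p = 0.947) and Col5a2 −0.02 (SE 0.161, adjusted p = 0.969). Values for type VI and Col15a1 were also near 0, with −0.02 for Col6a1 (SE 0.147, adjusted p = 0.941), 0.01 for Col6a2 (SE 0.158, adjusted p = 0.975), 0.0054 for Col6a3 (SE 0.156, adjusted p = 0.991) and −0.06 for Col15a1 (SE 0.156, adjusted p = 0.869). The other 22 chains ranged from −0.57 to 0.60 with adjusted p of 0.093 or more.

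CHP changed 1 of the 41 chains of gastrocnemius relative to WD, beside 0.409% of all genes. Col7a1 was at 37.7, 37.9, 41.8, 44.9 and 42.2 CPM under WD+CHP, all above the 5 WD libraries and overlapping the CD libraries. The rise was 0.28 (SE 0.052, adjusted p = 0.025). It follows the fall on the WD, but both comparisons use the same WD libraries. The call was lost without WD replicate 1 (adjusted p = 0.0822), WD replicate 2 (0.0542), WD replicate 3 (0.0551), WD+CHP replicate 3 (0.0731), WD+CHP replicate 4 (0.0531) or WD+CHP replicate 5 (0.0801), with log2 fold changes of 0.25 to 0.30. It was also lost with total count scaling (0.0666), with only the 2 groups fitted (0.0544) and with the length and GC correction alone (0.0913) or with the replicate block (0.057). The summed fast fibre markers were 185387 to 217194 CPM under WD and 191952 to 225134 under WD+CHP, against 210569 to 251755 under CD. The 10 adipocyte markers, all above the filter, summed to 499 to 671 CPM under WD, 379 to 637 under WD+CHP and 436 to 559 under CD. Plin4 alone gave 319 to 385 CPM of these sums as group means. The 8 pericyte and smooth muscle markers summed to 511 to 553 CPM under WD, 455 to 552 under WD+CHP and 423 to 512 under CD, so that WD and CD barely overlapped, and the 8 genes of tissue handling to 228 to 306, 145 to 406 and 176 to 272 CPM. Of the 10 adipocyte markers, 4 were called higher and 1 lower in WD vs. CD, beside 4.67% and 3.96% of all genes. In WD+CHP vs. WD 5 were called lower, beside 0.409% of all genes called. Called in both were Adipoq (1.00, adjusted p = 0.0015, then −1.15, adjusted p = 0.0067), Plin1 (0.93, 0.0012, then −0.98, 0.0094), Cidec (1.38, 0.000234, then −1.31, 0.0047) and Lep (3.96, 5.4e-05, then −1.89, 0.0326). Cfd was the one called lower on the WD (−1.59, 0.000546), and it did not return with CHP (0.0086, 0.993). The part of fibre, fat, pericyte and smooth muscle content or of handling in the values of Col7a1 and the other chains of muscle was not tested.

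The median over the 41 chains in this comparison was −0.097, beside −0.013 over all genes, and 9 chains had an unadjusted p under 0.05. Col1a1 had −0.31 (SE 0.261, adjusted p = 0.674), Col1a2 −0.36 (SE 0.245, adjusted p = 0.582), Col3a1 0.21 (SE 0.197, adjusted p = 0.708), Col5a1 0.09 (SE 0.135, adjusted p = 0.835) and Col5a2 −0.08 (SE 0.162, adjusted p = 0.88). For type IV the values were 0.05 for Col4a1 (SE 0.0974, adjusted p = 0.895), 0.04 for Col4a2 (SE 0.0852, adjusted p = 0.899), −0.18 for Col4a3 (SE 0.121, adjusted p = 0.593), −0.11 for Col4a4 (SE 0.0997, adjusted p = 0.697) and 0.08 for Col4a5 (SE 0.133, adjusted p = 0.858). Col6a1 had −0.04 (SE 0.147, adjusted p = 0.943), Col6a2 0.06 (SE 0.158, adjusted p = 0.913), Col6a3 0.06 (SE 0.156, adjusted p = 0.919), Col15a1 0.05 (SE 0.156, adjusted p = 0.926) and Col18a1 −0.11 (SE 0.0923, adjusted p = 0.681). The other 25 ranged from −0.96 to 0.26 with adjusted p of 0.173 or more.

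Against CD, 9 of the 41 chains of treated muscle were called, beside 9.40% of all genes. 1 was higher (4.85% of all genes) and 8 lower (4.55%). Col4a3 (−0.65, SE 0.119, adjusted p = 0.00313), Col4a4 (−0.58, SE 0.098, adjusted p = 0.00192), Col6a6 (−0.51, SE 0.118, adjusted p = 0.0122), Col9a1 (−0.52, SE 0.151, adjusted p = 0.0398) and Col24a1 (0.45, SE 0.0809, adjusted p = 0.00286) were also called on the WD alone against the same CD libraries. Col4a3 was at 1.60, 1.64, 1.91, 1.55 and 1.34 CPM under WD+CHP and Col4a4 at 1.66, 1.89, 2.02, 2.28 and 2.27, below all CD libraries. The call of Col9a1 was lost without any CD or WD+CHP library other than CD replicate 2 and WD+CHP replicate 4 (adjusted p = 0.0612 to 0.0986), with limma-voom (0.0539), with no filter (0.0602) and with only the 2 groups fitted (0.0606).

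The other 4 calls were of chains of cartilage and dense connective tissue. Col2a1, the chain of type II collagen, was at 0.677, 0.851, 0.818, 0.611 and 0.807 CPM under CD and at 0.487, 0.286, 0.420, 0.333 and 0.267 under WD+CHP, which are 14 to 45 counts per library over all groups. The groups were apart (−1.07, SE 0.223, adjusted p = 0.00713). Col14a1, a FACIT chain, was at 12.8, 11.03, 11.2, 8.00 and 7.43 CPM under CD and at 5.63, 6.06, 6.05, 6.18 and 6.58 under WD+CHP, also apart (−0.73, SE 0.154, adjusted p = 0.00756). Col11a2, of the type XI fibrils that template cartilage and tendon, was at 14.995, 16.0, 20.4, 18.3 and 13.9 CPM under CD and 12.1, 11.002, 11.7, 12.0 and 11.6 under WD+CHP (−0.51, SE 0.132, adjusted p = 0.0222). Its partner Col11a1 was at 3.73, 5.22, 6.08, 4.15 and 2.67 CPM and 1.81, 2.67, 2.84, 2.06 and 2.27 CPM, with overlap (−0.91, SE 0.243, adjusted p = 0.0273). The call of Col11a1 was lost in 5 fits, those without CD replicates 2 and 3 and without WD+CHP replicates 1, 4 and 5 (adjusted p = 0.0525 to 0.0791), and that of Col11a2 in 4, those without CD replicates 3 and 4 and without WD+CHP replicates 2 and 3 (0.0504 to 0.0654).

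**Figure D4:**
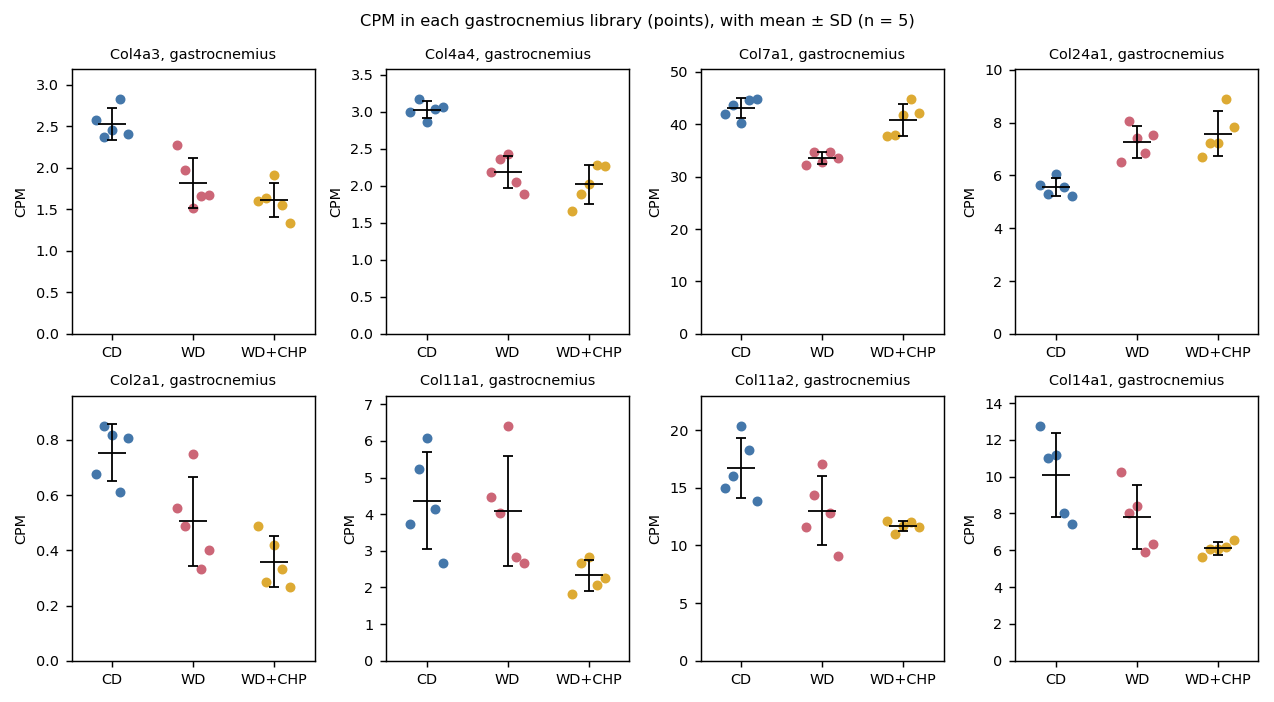
CPM of 8 collagen genes in each gastrocnemius library, with the mean and SD of 5 libraries per group. WD and CD libraries do not overlap for Col4a3, Col4a4, Col7a1 and Col24a1, and WD+CHP and CD libraries do not overlap for Col4a3, Col4a4, Col24a1, Col2a1, Col11a2 and Col14a1.

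Tendon markers were summed in each library. The 8 markers (Tnmd, Scx, Mkx, Fmod, Comp, Thbs4, Kera and Chad), all above the filter and none at 0, summed to 461, 522, 738, 482 and 343 CPM in the CD libraries, 534, 451, 750, 260 and 275 in the WD libraries and 214, 237, 314, 221 and 222 in the WD+CHP libraries. All WD+CHP libraries lay below all CD libraries, and the WD libraries spanned both. Most of these sums came from Fmod and Thbs4, with CD means of 241 and 188 CPM. Tnmd, Scx and Mkx had CD means of 6.43, 3.23 and 1.32 CPM. In the same order of libraries, Col11a1 was at 3.73, 5.22, 6.08, 4.15 and 2.67 CPM under CD, 4.46, 4.05, 6.41, 2.82 and 2.68 under WD and 1.81, 2.67, 2.84, 2.06 and 2.27 under WD+CHP. Col12a1, singled out after its values were seen, was at 13.5, 15.2, 16.9, 13.3 and 9.16 CPM under CD, 17.4, 13.6, 23.4, 7.90 and 6.99 under WD and 7.19, 7.25, 10.2, 6.98 and 8.47 under WD+CHP, and was not called in WD+CHP vs. WD (−0.79, SE 0.266, adjusted p = 0.225) or vs. CD (−0.76, SE 0.267, adjusted p = 0.082). Against CD it passed in 3 of 10 other settings, only the 2 groups and the replicate block with or without the length and GC correction (adjusted p down to 0.00884), and without WD replicate 3 or 5. In the WD libraries, again in that order, Col4a3 was at 2.27, 1.97, 1.52, 1.66 and 1.67 CPM and Col7a1 at 32.2, 34.6, 32.9, 34.7 and 33.5 CPM. Their values in the CD and WD+CHP libraries are given above. The fibroblast markers summed to 1088 to 1574 CPM under CD, 1063 to 1472 under WD and 1006 to 1344 under WD+CHP, of which Gsn alone gave 799 to 846 CPM as group means. 3 of these 10 markers were called lower in WD+CHP vs. CD, Dcn (−0.57, adjusted p = 0.0046), Fbln1 (−0.98, 0.0083) and Scara5 (−0.35, 0.0301). Of the 8 tendon markers 5 (Fmod, Comp, Thbs4, Kera and Chad) were called lower in WD+CHP vs. CD, where 4.55% of all genes were. Tnmd (−0.83, adjusted p = 0.0538), Mkx (−0.61, 0.121) and Scx (−0.13, 0.532) were not. In WD+CHP vs. WD edgeR called 0 of the 8, beside 0.409% of all genes, with adjusted p of 0.12 or more. The log2 fold changes there were −1.18 for Chad, −1.16 for Comp, −0.98 for Fmod and −0.91 for Tnmd. They were −0.81 for Mkx, −0.78 for Thbs4, −0.76 for Kera and 0.02 for Scx. The part of tendon or fibroblast content in the values of the chains and of Lox was not tested. Muscle fibroblasts can express several of these markers, and how the muscle was trimmed is not given in the sources used here.

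**Figure D5:**
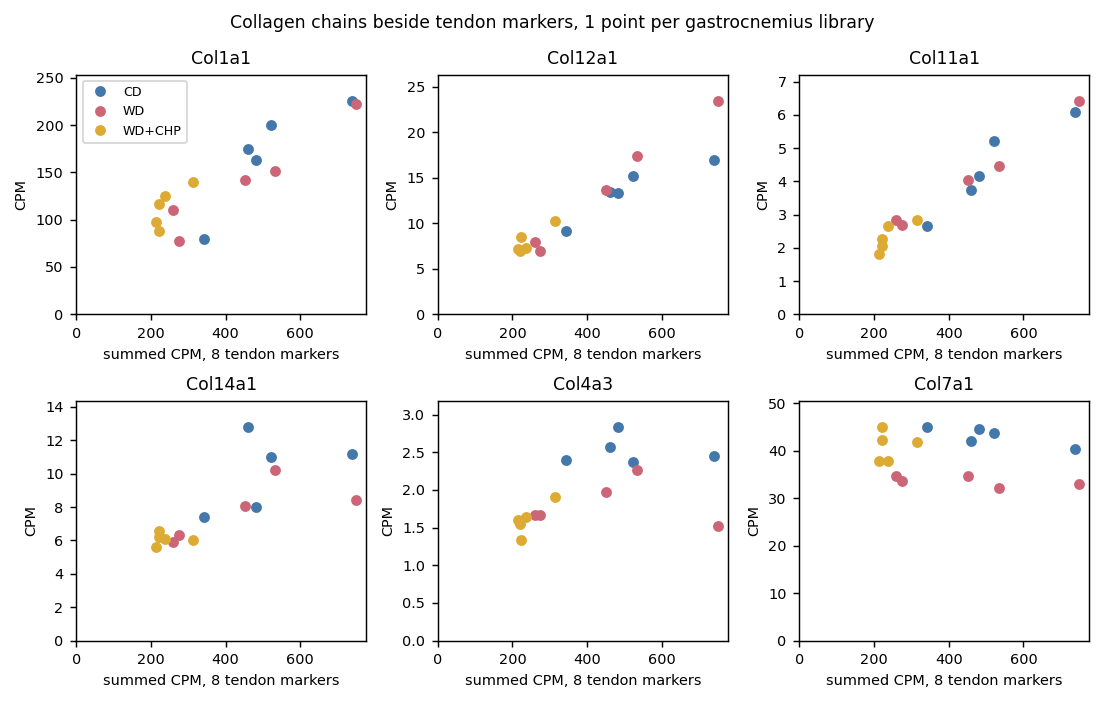
CPM of 6 collagen genes in each of the 15 gastrocnemius libraries against the summed CPM of 8 tendon markers in the same library, coloured by group. The WD+CHP libraries sit between 214 and 314 CPM of tendon markers. Col12a1 and Col11a1 are highest in the library with 750 CPM, a WD library, and the other genes shown are highest in a CD library.

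The diet effect was compared between tissues by an interaction in 1 model over the 30 libraries, with tissue and diet combined as groups. Kidney and muscle libraries were taken as independent, so the fit does not account for mice that gave both tissues. For WD vs. CD, 3 of the 43 chains tested differed between tissues, beside 4.13% of all 18708 genes. The filter here ran over tissues and groups together, so the 43 include chains nearly absent from 1 tissue. Col9a1 had 0 to 1 counts per kidney library and Col22a1 had 0 to 3, too few to show a difference between tissues. The 18708 genes were kept by the same filter. Col27a1 rose more in kidney, by 1.19 on the log2 scale (SE 0.202, adjusted p = 0.000508), with log2 fold changes of 1.38 in kidney and 0.19 in gastrocnemius. Its level also differed, at 71.2 to 97.4 CPM in kidney and 2.00 to 2.74 CPM in gastrocnemius under CD. Col5a2 fell more in kidney, by −1.12 (SE 0.218, adjusted p = 0.00204), with −1.14 and −0.02. Under CD its levels were alike in scale, at 26.3 to 34.5 CPM in kidney and 17.3 to 30.2 CPM in gastrocnemius. Col6a6, which was called in both tissues, also differed, by −1.35 (SE 0.314, adjusted p = 0.0107), with −1.79 and −0.43.

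Chains called in one tissue alone were otherwise not shown to differ between tissues. Col1a1 had an interaction of 0.99 (SE 0.342, adjusted p = 0.103), Col6a2 0.60 (SE 0.233, adjusted p = 0.153) and Col4a4 0.34 (SE 0.106, adjusted p = 0.0677). Without gastrocnemius CD replicate 5, the library low in fibrillar chains, the count was 6, with Col1a1, Col6a2 and Col14a1 added. Without gastrocnemius WD replicate 3 it was 5, with Col1a1 and Col4a4 added. For WD+CHP vs. WD, 0 of the same 43 chains differed between tissues in edgeR, beside 0.347% of all genes. 4 had an unadjusted p under 0.05, limma-voom called 0 with 3 at an unadjusted p under 0.05, and the smallest adjusted p was that of Col7a1 (0.103).

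Genes that act on collagen chains were counted in the same fits, to be read against the shares over all genes (in kidney on the WD, 4.62% higher and 5.03% lower). In kidney on the WD, 3 of the 5 lysyl oxidases, which cross-link collagen, rose and 0 fell: Loxl3 from 1.76 ± 0.22 to 2.63 ± 0.405 CPM (adjusted p = 0.0208), Loxl1 from 11.6 ± 1.99 to 16.3 ± 2.75 (0.0277) and Loxl2 from 5.84 ± 0.974 to 7.49 ± 0.745 (0.037). Of 7 procollagen processing genes 2 rose, the N-proteinases Adamts2 (log2 0.64, SE 0.126, adjusted p = 0.00516) and Adamts14 (0.78, SE 0.177, adjusted p = 0.0109). Of 14 hydroxylases and glycosyltransferases 2 rose, the prolyl hydroxylases P4ha2 (0.32) and P3h2 (0.34), and P4hb fell (−0.13). Of 10 chaperone and secretion genes Sparc rose (0.25) and Fkbp14 fell (−0.21), and of 11 receptor genes Mrc2, which takes up collagen for degradation, rose (0.49) as did Adgrg1 (0.25). Under CHP vs. WD in kidney, edgeR called 0 genes in each of these 5 lists, beside 0.105% of all genes, with 0, 0, 0, 1 and 3 at an unadjusted p under 0.05 for hydroxylases, chaperones, processing, cross-linking and receptors.

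In gastrocnemius on the WD, calls in 3 of these lists were P3h4 (0.43) of 14 hydroxylases and glycosyltransferases, Tmem38b (0.20) and Fkbp10 (0.44) of 10 chaperone and secretion genes and Mrc2 (0.52) of 11 receptors, all rises, beside 4.67% of all genes higher and 3.96% lower. No processing or cross-linking gene was called by edgeR, and 0 of either had an unadjusted p under 0.05. Under CHP vs. WD, where 0.409% of all genes were called, the only call in the 5 lists was Lox, the founding lysyl oxidase. Lox fell from 11.3 ± 2.73 to 6.18 ± 0.341 CPM (−0.88, SE 0.16, adjusted p = 0.025). It was at 11.2 ± 2.56 CPM under CD. Like the other calls in these lists, that of Lox was not checked in other settings or without single libraries, which were tallied for collagen genes alone. Against CD (4.85% of all genes higher and 4.55% lower), treated muscle had 3 of 14 hydroxylases and glycosyltransferases higher, Plod1 (0.23), P4ha2 (0.31) and P3h4 (0.43), and 1 of 10 chaperone and secretion genes higher, Serpinh1 (0.60), the collagen chaperone HSP47. Lower were 2 of 5 lysyl oxidases, Lox (−0.86) and Loxl4 (−0.89), 1 of 7 processing genes, Tll1 (−0.81), and 1 of 11 receptors, Itga2 (−1.12). Treated kidney against CD (6.25% of all genes higher and 5.84% lower) had 4 of 14 hydroxylases and glycosyltransferases higher, Plod1 (0.23), P4ha1 (0.34), P4ha2 (0.37) and P3h2 (0.26), and 1 lower, P3h4 (−0.38). Of 10 chaperone and secretion genes Serpinh1 was higher (0.34) and Fkbp14 lower (−0.21), and of 7 processing genes Adamts2 was higher (0.51). EdgeR called 0 of 5 lysyl oxidases and 0 of 11 receptors there, with 2 of each at an unadjusted p under 0.05.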

How the data were processed

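Whole-tissue RNA-seq of kidney and gastrocnemius was analysed from gene counts that the authors deposited, 1 table per tissue with 15 libraries each, made after polyA enrichment. Reads had been aligned with STAR 2.7.3a to GRCm38 (mm10), per the labels. The counting tool, its strand setting and its treatment of shared reads are not given in the sources used here. The authors' replicates are taken as separate mice, so p-values cover the spread between mice.

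Each tissue was fitted on its own with edgeR 4.0.16 (R 4.3.3): TMM normalisation, filterByExpr by group with a minimum count of 10, a quasi-likelihood F test on group means over all 3 groups, and Benjamini-Hochberg adjustment over all genes kept, with a threshold of 0.05. SE is the absolute log2 fold change over the square root of F. CPM use TMM-scaled library sizes, and CPM per kb divide by union exon length (GENCODE M21). The tissue difference came from 1 edgeR fit over all 30 libraries. Kidney libraries held 37189192 to 38211422 counts and gastrocnemius libraries 50319024 to 53282969. Within each group of a tissue, no 2 libraries agreed within sampling noise. Libraries of different groups were not compared in this way.

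The collagen genes, the pathway lists and the marker lists were chosen with earlier results of these data known. Named genes are every collagen gene called in a comparison and, whatever their p, Col1a1, Col1a2, Col3a1, Col5a1, Col5a2, Col4a1 to Col4a5, Col6a1 to Col6a3, Col15a1 and Col18a1, except that WD+CHP vs. CD gives uncalled chains as a range. Alternatives were DESeq2 1.42.0, limma-voom (limma 3.58.1), other scalings and filters, a replicate block, only the 2 groups compared, a length and GC correction, and leaving out each library. The procedures were tested on simulated data. The list of basement membrane partners is not reported here.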

Additional observations from a re-analysis of the deposited data

Results flagged for a closer look

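Among 129 groups of 5 libraries searched, 4 held a library far from the other 4, where about 1 in 20 groups would by chance. Col12a1 in kidney WD replicate 2 was 9.22 CPM against 7.31 to 7.85 in the other WD libraries. Col4a5 in gastrocnemius WD replicate 2 was 3.56 CPM against 2.45 to 2.74. Gastrocnemius WD+CHP replicate 4 stood apart for a pair of genes, at 50.3 CPM of Col6a3 against 63.1 to 67.7 and at 3.33 CPM of Col9a1 against 2.16 to 2.48.

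The effect of the WD differed between tissues for 3 chains, by the interaction in edgeR's quasi-likelihood test. The kidney minus gastrocnemius difference in log2 fold change was 1.19 for Col27a1 (adjusted p = 0.000508), -1.12 for Col5a2 (0.00204) and -1.35 for Col6a6 (0.0107).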

How the results depend on the processing

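Of the log2 fold changes of the named collagen genes under all alternatives, 2034 kept direction and side of the threshold, 83 kept direction but missed the threshold, 18 kept direction and newly passed it, and 66 changed sign, all of chains that were not called in that comparison. Counts of called chains stayed within 1.5 times for WD vs. CD in kidney (7 to 12 without single libraries), for WD+CHP vs. WD in kidney (0 throughout) and for WD+CHP vs. CD in gastrocnemius. Without single libraries, the count for WD vs. CD in gastrocnemius was 4 (without CD replicate 4) to 7, that for WD+CHP vs. CD in kidney 4 to 9, that for WD+CHP vs. WD in gastrocnemius 0 to 1 and that for the tissue difference of WD vs. CD 3 to 6. For WD+CHP vs. WD in gastrocnemius DESeq2 called 2 chains (Col11a1 added), and total count scaling, fitting only the 2 groups, and the length and GC correction with or without the replicate block called 0. The tissue difference of WD vs. CD had 5 calls with at least 10 counts in every library. Some chains that edgeR did not call passed in other settings. For example, Col3a1, Col8a1 and Col14a1 passed in 2 of 10 other settings for WD vs. CD in kidney, and Col11a2 in 3 for WD vs. CD in gastrocnemius. The cause of these changes was not tested. DESeq2, no filter, the replicate block, only the 2 groups and the length and GC correction were not run for the tissue difference.

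The replicate numbers did not pair the libraries: correlations of same-numbered libraries ran from -0.126 to 0.146. Over 6 comparisons of 5 pairs each, which reuse libraries, the library of 1 group correlated best with its own number in the other group in 7 of 30 pairs. With the replicate block the counts were 14 for WD vs. CD in kidney, 6 for WD+CHP vs. CD in kidney, 8 and 11 for the same comparisons in gastrocnemius, and 0 and 1 for WD+CHP vs. WD in kidney and gastrocnemius.

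Chains outside the naming rule in a comparison were not tallied, and some of them also crossed 0. The named chains that crossed 0 when single libraries were left out had the log2 fold changes that follow. For WD vs. CD in gastrocnemius these were Col15a1 (-0.192 to 0.0471), Col4a1 (-0.00374 to 0.134), Col4a2 (-0.0192 to 0.10), Col5a1 (-0.0905 to 0.0936), Col5a2 (-0.132 to 0.0808), Col6a1 (-0.143 to 0.0585), Col6a2 (-0.112 to 0.10) and Col6a3 (-0.114 to 0.092). For WD+CHP vs. WD in gastrocnemius they were Col15a1 (-0.0157 to 0.132), Col4a1 (-0.0185 to 0.119), Col4a2 (-0.00906 to 0.0991), Col5a2 (-0.181 to 0.00883), Col6a1 (-0.123 to 0.0408), Col6a2 (-0.0269 to 0.137) and Col6a3 (-0.0177 to 0.153). For WD vs. CD in kidney they were Col15a1 (-0.0223 to 0.147), Col4a2 (-0.00979 to 0.0714) and Col4a5 (-0.0125 to 0.0785), and for WD+CHP vs. WD in kidney Col15a1 (-0.0504 to 0.101), Col4a2 (-0.0698 to 0.00896), Col4a4 (-0.00997 to 0.0609), Col4a5 (-0.0482 to 0.048) and Col5a1 (-0.14 to 0.00487).

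Other settings changed the sign of a few named chains. Total count scaling gave -0.0257 for Col15a1 and -0.00207 for Col4a4 in WD+CHP vs. WD of kidney, 0.00659 for Col15a1, 0.0483 for Col5a2 and 0.0387 for Col6a1 in WD vs. CD of gastrocnemius, and -0.00392 for Col4a2 in WD+CHP vs. WD of gastrocnemius. The length and GC correction gave 0.0184 for Col4a2 in WD+CHP vs. WD of kidney, -0.00253 for Col6a2 and -0.000654 for Col6a3 in WD vs. CD of gastrocnemius, and -0.00125 for Col4a2 in WD+CHP vs. WD of gastrocnemius. That correction with the replicate block gave 0.0205 for Col4a2 (WD+CHP vs. WD, kidney) and -0.000314 for Col6a2 (WD vs. CD, gastrocnemius). In limma-voom Col15a1 was at -0.00232 (WD+CHP vs. WD, kidney). Precision falls with depth for the rarest chains, such as Col25a1 in kidney (9 to 21 counts per library) and Col2a1 in gastrocnemius (14 to 45).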
